A study of Mus musculus with 37 samples.

Results

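The Bcl2 family apoptosis regulators are 10 genes, found by their symbols among the 24318 genes listed at each of 2 embryonic stages in mouse primordial germ cells (PGCs), the precursors of eggs and sperm. They comprise the effectors Bax and Bak1, the BH3-only genes Bid, Bad, Bcl2l11, Bbc3 and Pmaip1, and the antiapoptotic genes Bcl2, Bcl2l1 and Mcl1. The comparison addresses how transcription in PGCs differs after loss of Dnmt1, the enzyme that copies DNA methylation onto the new strand at replication. Polyadenylated RNA of sorted PGCs was amplified and sequenced, and levels were deposited as RPKM, reads scaled by transcript length and by mapped reads.

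The Dnmt1 knockout PGCs, called DCKO in the sample titles and Dnmt1 -/- in the genotype label, were set against PGCs labelled wild type, called control. Females homozygous for the floxed Dnmt1 2lox allele, with an Oct4-IRES-Gfp reporter in the cross, were mated to Blimp1-Cre males. Cells of both genotypes were sorted for the green reporter, and the labels do not say which control embryos, if any, carried Cre. Cre was under Blimp1, a gene that is on in PGCs but also in some other embryonic cells, so deletion need not have been limited to PGCs or complete in them. Embryos were staged in days after mating. The E10.5 groups held 3 DCKO libraries, of 2 females and 1 male, and 4 control libraries, of 2 females and 2 males. The E11.5 groups held 10 DCKO libraries, of 6 females and 4 males, and 8 control libraries, of 4 females and 4 males. The E13.5 samples, 12 in number, were not analysed here. Nothing in the labels says if each library of a group was a separate embryo, so p-values measure only the spread among these samples, part of which may be technical.

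In the mitochondrial pathway of apoptosis, Bax and Bak1 permeabilise the outer mitochondrial membrane, which releases cytochrome c and leads to caspase activation. Antiapoptotic proteins hold the effectors in check, and BH3-only proteins bind the antiapoptotic proteins or activate the effectors directly. In mouse PGCs, loss of Bax lets ectopic germ cells survive, and Bcl2l1 is needed for germ cell survival. Much of this control acts on proteins, by cleavage, phosphorylation and turnover, which RNA levels do not show.

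The targeted gene, Dnmt1, had a log2 fold change of -2.07 at each stage, and no DCKO library reached the lowest control library. At E11.5 the highest DCKO values of Dnmt1 were 59.4 RPKM in male DCKO 1 and 58.4 RPKM in female DCKO 2. The DCKO median there was 23.1 RPKM, and the lowest control library had 72.9 RPKM. All 12 germ cell markers had a median of 1 RPKM or more at both stages, and at E11.5 so did 2 of 8 gonadal somatic, 5 of 8 mesenchymal, 3 of 6 endothelial, 2 of 6 erythroid, 3 of 6 gut epithelial and 0 of 6 macrophage and other blood cell markers. At E10.5 the counts were 0 of 8 gonadal somatic, 0 of 8 mesenchymal and 3 of 6 endothelial markers. They were 3 of 6 erythroid, 3 of 6 gut epithelial and 1 of 6 blood cell markers, the last being Tyrobp. The gonadal genes Nr5a1, Amh and Foxl2 and the blood genes Ptprc, C1qa, C1qb, Csf1r and Fcer1g were listed at a median of 0 at both stages. Blood cell markers still summed to as much as 27.2 RPKM at E10.5 and 42.7 RPKM at E11.5, in male control 2 of each stage. Erythroid markers, mostly embryonic globins, summed to 2163 RPKM in male DCKO 1, 739.8 RPKM in female control 1 and 1033 RPKM in male control 2 at E10.5. At E11.5 they summed to 1635 RPKM in female DCKO 4, 1376 RPKM in female DCKO 6, 353 RPKM in female control 4 and 2227 RPKM in male control 3, and to at most 10.6 RPKM in the other libraries of either stage. Libraries held 9125 to 11095 genes at 1 RPKM or more at E10.5 and 8277 to 13200 at E11.5, and their read depth is unknown. The mean log2(RPKM + 1) of 40 somatic marker genes was highest at E11.5 in female DCKO 4 (3.33), male DCKO 1 (2.09) and male control 3 (3.97). It lay between 0.47 and 2.07 in the other E11.5 libraries. Germ cell markers summed to 386 RPKM in male control 3, 1776 RPKM in female DCKO 4 and 1784 RPKM in male DCKO 1. In the other E11.5 libraries they summed to between 2863 and 4894 RPKM. In bulk samples such as these, fewer cells of a type and less RNA per cell cannot be told apart.

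Because Dnmt1 acts on CG dinucleotides, the promoters of the 3 members with the smallest unadjusted p between genotypes at either stage are shown, each at its most upstream annotated start. The windows run from 250 bases before the transcription start to 50 after it, on the gene's own strand, from RefSeq in build GRCm38.p6, with every CG in capitals. No methylation was measured in these libraries. 
Bax, chr7:45466849-45467148, minus strand: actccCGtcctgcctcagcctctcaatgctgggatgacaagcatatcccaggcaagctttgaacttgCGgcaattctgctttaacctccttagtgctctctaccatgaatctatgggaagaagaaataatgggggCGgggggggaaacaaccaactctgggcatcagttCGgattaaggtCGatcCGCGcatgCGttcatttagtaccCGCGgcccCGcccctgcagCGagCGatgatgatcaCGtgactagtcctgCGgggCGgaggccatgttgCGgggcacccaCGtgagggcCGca
Bad, chr19:6941611-6941910, plus strand: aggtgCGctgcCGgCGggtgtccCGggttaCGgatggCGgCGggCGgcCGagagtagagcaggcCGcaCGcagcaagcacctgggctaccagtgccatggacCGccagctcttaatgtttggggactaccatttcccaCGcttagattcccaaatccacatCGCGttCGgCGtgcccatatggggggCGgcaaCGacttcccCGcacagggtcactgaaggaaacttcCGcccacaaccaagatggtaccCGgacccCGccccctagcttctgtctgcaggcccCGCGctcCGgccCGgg
Bcl2l11, chr2:128125788-128126087, plus strand: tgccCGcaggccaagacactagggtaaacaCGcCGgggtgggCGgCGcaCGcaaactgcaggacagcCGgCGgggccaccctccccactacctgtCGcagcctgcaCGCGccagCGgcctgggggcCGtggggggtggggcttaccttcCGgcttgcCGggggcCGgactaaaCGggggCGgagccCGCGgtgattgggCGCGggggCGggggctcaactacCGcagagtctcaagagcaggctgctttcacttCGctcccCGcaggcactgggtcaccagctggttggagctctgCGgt

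The Bax window held 19 CG, the Bad window 27 and the Bcl2l11 window 27. The median over all 32851 windows of the same length was 7, and 94.6% of them held at least 1 CG. Windows on chromosome 18, which holds Pmaip1, were left out of the member windows. In all, 15 windows of the other 9 members were matched. They held 1 to 44 CG, with a median of 27, and 14 of the 15 lay above the median of all windows. The window with 1 CG belonged to Bcl2l1, whose other windows held 14 and 22, and the window with 44 belonged to Bcl2. The E-box CACGTG, which reads the same on both strands, occurred 2 times in the Bax window and once in 1 of 3 Bbc3 windows. It occurred in 7.15% of all windows, and 2 or more copies in 0.594%.

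Ranked by RPKM, Bax was the highest member in 18 of the 25 libraries, Mcl1 in 3, Bcl2l11 in 3 and Bbc3 in 1. By mean RPKM Bax stood above 87.9% of the tested genes at E11.5 and above 87.2% at E10.5, and Mcl1 above 77.4% and 76.3%. At E11.5 Bcl2l11, Bid and Bad stood in the middle, between 53.9% and 71.8%. The mean of Bbc3 stood above 50.2%, but it includes 125 RPKM in male control 4, and the median of Bbc3 over the 18 libraries was 1.05 RPKM. Bcl2l1, Bak1 and Bcl2 were lower, at 38.2%, 38.1% and 26.6%. Pmaip1 averaged 0.787 RPKM at E11.5 and 0.995 RPKM at E10.5, under the mean of 1 RPKM required for testing. Bcl2 averaged 0.748 RPKM at E10.5 and was not tested there either. Thus 9 of 10 members were tested at E11.5 and 8 of 10 at E10.5.

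The order of neighbours in this ranking was partly unsettled. At E10.5 Bax exceeded Mcl1 in 6 of 7 libraries and Mcl1 exceeded Bid in 5 of 7. Bid exceeded Bad in 4 of 7, Bad exceeded Bcl2l11 in 4 of 7, and Bcl2l1 exceeded Bak1 in 3 of 7. Each library had 6 to 9 members at 1 RPKM or more. The genes also differed in how much they varied between E11.5 libraries. The SD of log2(RPKM + 1) was 0.69 for Bid and 0.87 for Bax, below the median of 0.97 over all genes tested. It was 1.68 for Bad and 1.91 for Bbc3, above 93.1% and 95.7% of the genes tested.

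**Figure D1:**
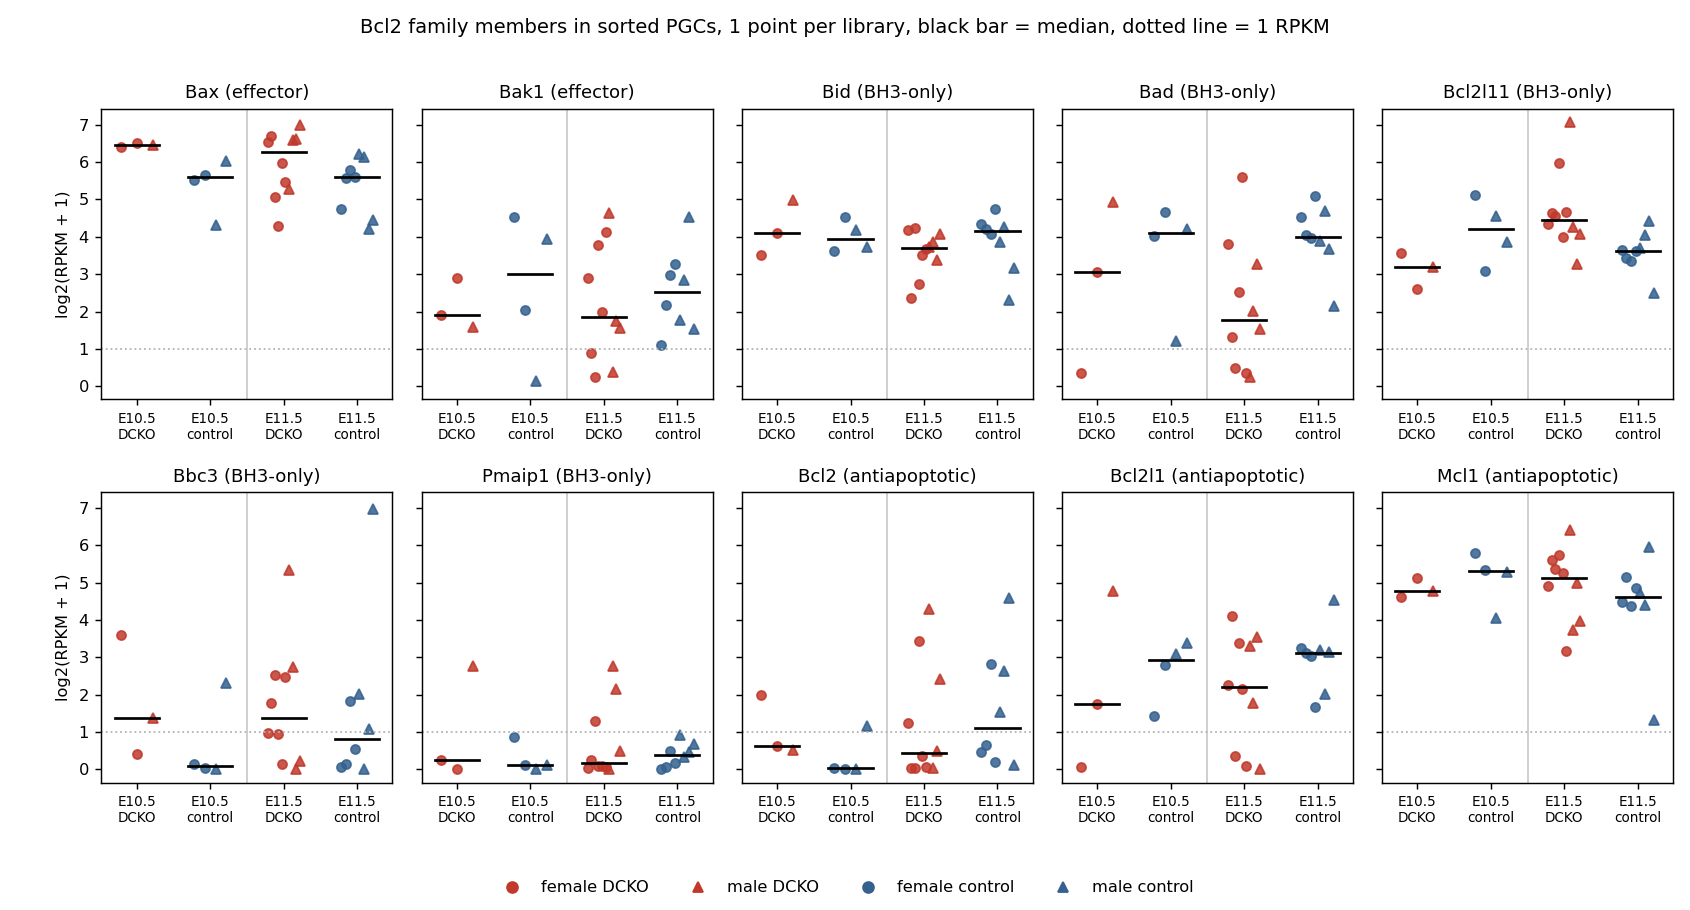
Level of each member as log2(RPKM + 1), 1 point per library, with females as circles, males as triangles, DCKO in red to the left of control in blue at each stage, and the median as a black bar. Bax, Bid, Bcl2l11 and Mcl1 stayed above 1 RPKM in all 25 libraries. The 3 E10.5 DCKO libraries lay above the 4 control libraries for Bax, and Pmaip1 was under 1 RPKM in most libraries.

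No member differed between genotypes past the threshold, an adjusted p under 0.05 over all genes, at either stage. At E11.5 limma called 0 of 9 tested members, where it called 3 of 12667 genes (0.0237%). At E10.5 it called 0 of 8 members and 0 of 11584 genes (0%). Dnmt1 itself, at a log2 fold change of -2.07, passed at E11.5 (limma adjusted p = 0.0355) but not at E10.5 (adjusted p = 0.991). The threshold at E10.5 could therefore miss a change of that size. At an unadjusted p under 0.05, Bcl2l11 was the 1 member that was higher in E11.5 DCKO, where 1.73% of genes were higher. Bad was the 1 member that was lower, where 3.73% of genes were lower. At E10.5 no member reached this unadjusted level in the design used throughout, against 1.49% of genes higher and 1.6% lower in DCKO. These shares of the members rest on so few genes that they are given as counts only.

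The members did not move as a block. At E11.5, 4 of the 9 members tested were above 0 on the log2 scale and their median was -0.26, beside 45.0% of all genes with a median of -0.06. At E10.5, 3 of 8 were above 0 with a median of -0.24, beside 46.8% of all genes with a median of -0.05. All fold changes were taken of RPKM + 1, so the change of a low gene is understated. Exact permutation tests over libraries, two-sided, were also computed for each member at each stage, 20 in all, and their p-values are not adjusted.

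**Figure D2:**
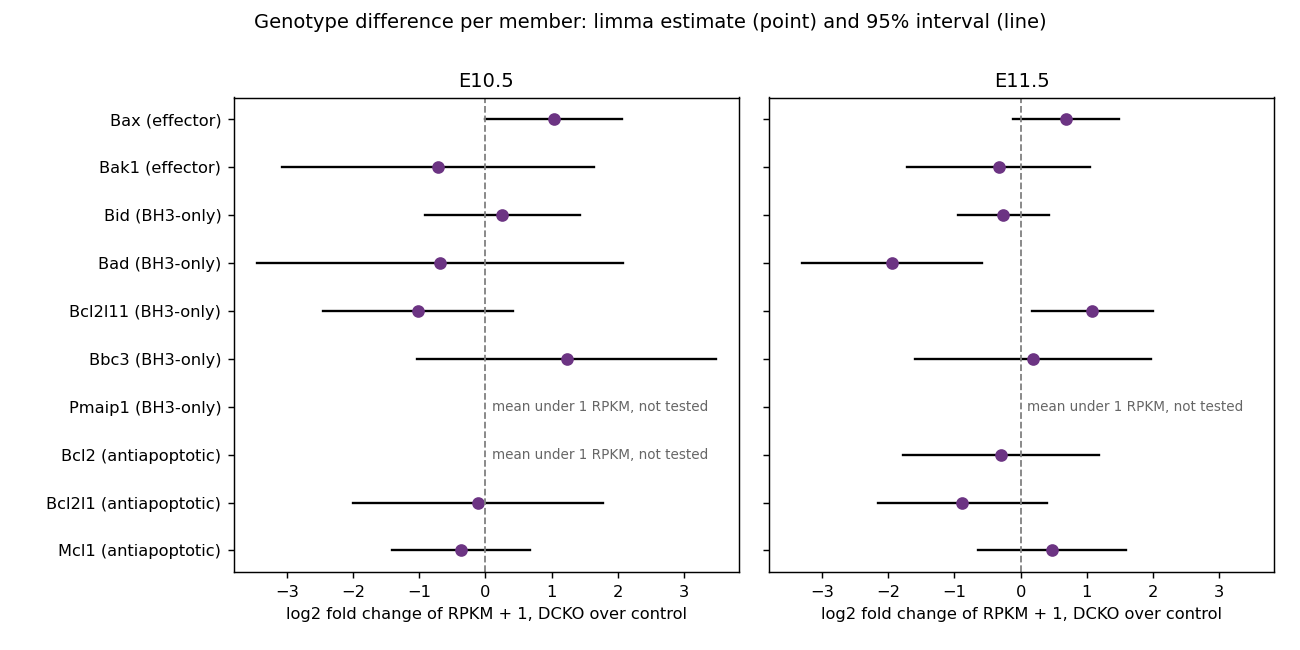
Log2 fold change of RPKM + 1, DCKO over control, for each tested member at E10.5 and E11.5, with the limma estimate as a point and its 95% interval as a line. The intervals of Bad (-3.30 to -0.58) and Bcl2l11 (0.17 to 2.00) at E11.5 lie to 1 side of 0, before adjustment over all genes.

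Bax, the effector that moves from the cytosol into the mitochondrial membrane, was the most abundant member and was high in DCKO at E10.5. It had 83.5, 89.3 and 86.4 RPKM in the E10.5 DCKO libraries, against 44.6, 49.8, 18.8 and 63.7 RPKM in the control libraries. All 3 DCKO libraries lay above all 4 control libraries, and the DCKO values were close together. Of all genes tested at E10.5, 2.28% lay above in this way and 2.87% below, and Bax was the only member whose groups were apart in either direction. Mean levels were 86.4 ± 2.88 RPKM in DCKO (SD, n = 3), against 44.2 ± 18.8 RPKM in control (SD, n = 4). On the log2 scale the difference was 1.03 (SE 0.46), with a limma unadjusted p of 0.0509 and an adjusted p of 0.991. The exact permutation p was 0.0571, and the 35 splits of 3 against 4 libraries allow none below 0.0286. The control library with 18.8 RPKM, male control 1, also had the fewest genes of its stage, and without it the log2 fold change was 0.72 (limma unadjusted p = 0.063). Without male control 2, the highest control library, it was 1.29 (unadjusted p = 0.017), and with a covariate for the somatic marker mean it was 1.23 (unadjusted p = 0.00961, adjusted p = 0.934).

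At E11.5 Bax had a lowest, median and highest value of 18.4, 77.1 and 127 RPKM in DCKO, against 17.6, 47.1 and 74.0 RPKM in control. The groups overlapped at the low end, and 5 of 10 DCKO libraries lay above every control library. This gave a log2 fold change of 0.68 (SE 0.38, limma unadjusted p = 0.0897, adjusted p = 0.912). Male DCKO libraries had 37.8, 95.1, 97.2 and 127 RPKM, against 74.0, 69.1, 17.6 and 20.8 RPKM in male control libraries. In males, 3 of 4 DCKO libraries were above every control library. The difference was 1.12 (SE 0.56, unadjusted p = 0.0626) in males and 0.25 (SE 0.51, unadjusted p = 0.633) in females by limma. The effect in females minus that in males was -0.87 (SE 0.76), with a limma adjusted p of 0.995, so a difference between the sexes was not shown.

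The 2 E11.5 libraries lowest in Bax, female DCKO 4 at 18.4 RPKM and male control 3 at 17.6 RPKM, were also the 2 highest in somatic markers. Without those and male DCKO 1, the next in somatic markers, the E11.5 Bax fold change was 0.83 (limma unadjusted p = 0.0224, adjusted p = 0.716). With a covariate for the somatic marker mean it was 0.55 (unadjusted p = 0.127). Leaving out 1 library at a time, it ran from 0.51, without male control 3, to 0.86, without male DCKO 1. The limma unadjusted p then ran from 0.0339 to 0.199. Within annotated exons, 12.2% of the Bax bases are shared with the overlapping same-strand gene Gm45808 in GENCODE M21, so reads there may be split between the 2 genes.

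Bak1, the effector that sits in the mitochondrial membrane, was much lower than Bax and varied widely. It had 2.73, 6.47 and 1.99 RPKM in E10.5 DCKO, against 22.2, 3.09, 0.111 and 14.5 RPKM in control. Its E11.5 values had a lowest, median and highest of 0.181, 2.65 and 23.9 RPKM in DCKO, against 1.16, 4.85 and 21.9 RPKM in control. At E10.5 the DCKO values lay inside the range of the control values, and at E11.5 the groups overlapped over most of their ranges, with log2 fold changes of -0.72 (SE 1.04) at E10.5 and -0.33 (SE 0.66) at E11.5. The 95% interval at E11.5, from -1.71 to 1.05, spans more than a doubling in either direction. The highest E11.5 libraries were male DCKO 1 at 23.9 RPKM, female DCKO 6 at 16.5 RPKM, female DCKO 4 at 12.8 RPKM and male control 3 at 21.9 RPKM. With a covariate for the somatic marker mean, the E11.5 fold change was -0.01, whereas without the 3 libraries highest in somatic markers it was -0.60 (SE 0.58). Part of the Bak1 exons overlaps Ggnbp1 on the opposite strand, and reads of such pairs cannot be told apart unless the counting used strand, which is not stated.

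Among the BH3-only genes, Bad and Bcl2l11 stood on opposite sides of control at E11.5. Bad encodes a protein that binds Bcl2 and Bcl2l1 and is kept inactive by phosphorylation downstream of growth factors. It had a lowest, median and highest value of 0.193, 2.49 and 47.7 RPKM in E11.5 DCKO, against 3.45, 15.0 and 33.1 RPKM in control. In DCKO 6 of 10 libraries lay below every control library, while 1, female DCKO 5, lay above every control library. No member's groups were fully apart at E11.5, where 0.00789% of genes had every DCKO library above every control library and 0.0316% had every one below. Mean levels were 8.15 ± 14.5 RPKM in DCKO (SD, n = 10), against 17.4 ± 9.06 RPKM in control (SD, n = 8). The log2 fold change was -1.94 (SE 0.65), with a limma unadjusted p of 0.00764 and an adjusted p of 0.884, and the exact permutation p was 0.015.

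The Bad difference had the same direction in both sexes. Female DCKO libraries had a lowest, median and highest value of 0.278, 3.13 and 47.7 RPKM, against 22.1, 15.4, 14.6 and 33.1 RPKM in female control libraries. In females, 5 of 6 DCKO libraries lay below every control library. Male DCKO libraries had 0.193, 3.06, 8.72 and 1.92 RPKM, against 13.7, 24.9, 11.8 and 3.45 RPKM in male control libraries. In males, 3 of 4 DCKO libraries lay below every control library, and the fourth lay below all but the lowest. On the log2 scale the difference was -2.05 (SE 0.87, limma unadjusted p = 0.0301, adjusted p = 1.00) in females and -1.83 (SE 0.96, unadjusted p = 0.0721, adjusted p = 0.749) in males.

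Bad also moved with the number of genes seen in a library. Over the 18 E11.5 libraries, Spearman's rho between Bad and the count of genes reaching 1 RPKM was 0.57, as a description. With that number as a covariate the log2 fold change was -1.62 (SE 0.65, limma unadjusted p = 0.0227, adjusted p = 0.482). Without each library in turn it ran from -2.27 to -1.69. At E10.5 Bad had 0.282, 7.33 and 29.7 RPKM in DCKO, against 15.2, 24.3, 1.32 and 17.4 RPKM in control. The groups overlapped fully, with the highest and the lowest value both in DCKO, and the log2 fold change of -0.69 (SE 1.22) was smaller than its SE. In the annotation 20.5% of the Bad exon bases overlap Gpr137 on the opposite strand.

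Bcl2l11 encodes Bim, a BH3-only protein that binds all the antiapoptotic proteins and can activate Bax. At E11.5 it had a lowest, median and highest value of 8.61, 20.8 and 133 RPKM in DCKO, against 4.66, 11.4 and 20.6 RPKM in control. In DCKO 5 of 10 libraries lay above every control library and 9 of 10 above the control median. Mean levels were 34.2 ± 37.5 RPKM in DCKO (SD, n = 10), against 11.8 ± 4.70 RPKM in control (SD, n = 8). This gave a log2 fold change of 1.08 (SE 0.44), with a limma unadjusted p of 0.0223 and an adjusted p of 0.902, and the exact permutation p was 0.0115.

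In females, Bcl2l11 had a lowest, median and highest value of 14.8, 23.2 and 62.4 RPKM in DCKO, against 11.48, 9.76, 9.30 and 11.3 RPKM in control. All 6 female DCKO libraries lay above all 4 female control libraries, as did 0.371% of the genes tested. In males it had 133, 18.2, 8.61 and 15.7 RPKM in DCKO, against 11.95, 15.7, 20.6 and 4.66 RPKM in control. The male groups overlapped, with male DCKO 1 alone above every control library. The log2 fold change was 1.18 (SE 0.59, limma unadjusted p = 0.0595, adjusted p = 1.00) in females and 0.99 (SE 0.64, unadjusted p = 0.14, adjusted p = 0.778) in males.

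The size of the Bcl2l11 difference depended on a few libraries. The highest values, 133 RPKM in male DCKO 1 and 62.4 RPKM in female DCKO 4, were in libraries that were also high in somatic markers. Without male DCKO 1 the log2 fold change was 0.68 (limma unadjusted p = 0.0497), and without the 3 libraries highest in somatic markers it was also 0.68 (unadjusted p = 0.031). With a covariate for the somatic marker mean it was 1.28 (unadjusted p = 0.00177, adjusted p = 0.361). Without male control 4, the lowest control library, it was 0.89 (unadjusted p = 0.0552). Without the 3 libraries with the fewest genes, which are male DCKO 1, male DCKO 4 and male control 4, it was 0.44 (unadjusted p = 0.174).

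At E10.5 Bcl2l11 stood the other way. It had 10.9, 5.08 and 8.05 RPKM in DCKO, against 34.0, 7.42, 22.7 and 13.47 RPKM in control. The DCKO libraries were at the low end and overlapped 1 control library, female control 2. On the log2 scale the difference was -1.02 (SE 0.63, limma unadjusted p = 0.14, adjusted p = 0.991), with a 95% interval from -2.45 to 0.41. The stages were not tested against each other, because each table may have been normalised on its own.

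Bid, which caspase-8 cleaves to carry a death-receptor signal to mitochondria, had steady values. It had 10.4, 16.2 and 30.4 RPKM in E10.5 DCKO, against 11.3, 22.1, 17.1 and 12.2 RPKM in control. Its E11.5 values had a lowest, median and highest of 4.13, 11.95 and 17.8 RPKM in DCKO, against 3.95, 16.8 and 25.7 RPKM in control. The groups overlapped at both stages, with log2 fold changes of 0.25 (SE 0.51) at E10.5 and -0.26 (SE 0.33) at E11.5.

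Bid had the smallest p among members for a genotype effect that differed between the sexes. In females the log2 fold change was -0.89 (SE 0.44), with 4 of 6 DCKO libraries below every control library, and in males it was 0.37 (SE 0.48). The effect in females minus that in males was -1.26 (SE 0.66, limma unadjusted p = 0.0708, adjusted p = 0.995). By limma 0 members and 0 genes (0%) passed the adjusted threshold for this difference, and no member had an unadjusted p under 0.05. In the annotation 17.7% of the Bid exon bases overlap Bcl2l13 on the opposite strand.

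Bbc3 (Puma) and Pmaip1 (Noxa), BH3-only genes that p53 switches on after DNA damage, were low in most libraries. Bbc3 had 11.02, 0.326 and 1.58 RPKM in E10.5 DCKO, against 0.107, 0.0209, 0 and 4.01 RPKM in control. At E11.5 it had a lowest, median and highest value of 0, 1.70 and 39.7 RPKM in DCKO, against 0, 0.784 and 125 RPKM in control. The groups overlapped at both stages, and single libraries stood far above the rest, male DCKO 1 at 39.7 RPKM and male control 4 at 125 RPKM. This gave a log2 fold change of 1.23 (SE 0.99; adjusted p by limma = 0.991) at E10.5 and 0.19 (SE 0.85, adjusted p = 0.993) at E11.5. Without female DCKO 1, the highest E10.5 library, the E10.5 value was 0.26 (SE 0.85). Male control 4 also had the fewest genes of all 25 libraries, 8277, and the lowest Mcl1, 1.50 RPKM.

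Pmaip1 had 0.199, 0 and 5.76 RPKM in E10.5 DCKO, against 0.838, 0.0755, 0 and 0.0911 RPKM in control. Its E11.5 values had a lowest, median and highest of 0, 0.132 and 5.75 RPKM in DCKO, against 0, 0.319 and 0.897 RPKM in control. No control library reached 1 RPKM at either stage, and 1 of 3 DCKO libraries at E10.5 and 3 of 10 at E11.5 did. Those at E11.5 were male DCKO 2 at 5.75 RPKM, male DCKO 3 at 3.44 RPKM and female DCKO 3 at 1.47 RPKM. With no filter on low genes, the log2 fold change was 0.86 (SE 0.65) at E10.5 and 0.44 (SE 0.32) at E11.5, with limma adjusted p-values of 0.931 and 0.898. A listed 0 can be a failed estimate in a table of this kind, so it is not read as absence.

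Among the antiapoptotic genes, Mcl1, whose short-lived protein restrains Bak1 and Bim, was by far the most abundant. It had 23.7, 33.6 and 26.5 RPKM in E10.5 DCKO, against 54.2, 39.0, 15.7 and 38.2 RPKM in control. At E11.5 it had a lowest, median and highest value of 7.96, 34.2 and 83.0 RPKM in DCKO, against 1.50, 23.3 and 60.8 RPKM in control. The groups overlapped at both stages. At E10.5 all 3 DCKO libraries were below all control libraries except male control 1, with a log2 fold change of -0.37 (SE 0.46). At E11.5 it was 0.48 (SE 0.53), with a 95% interval from -0.64 to 1.60, and -0.19 (SE 0.41) without the 3 libraries with the fewest genes. With the number of genes as a covariate it was 0.97 (SE 0.42, limma unadjusted p = 0.0354, adjusted p = 0.543). In females 4 of 6 DCKO libraries lay above every control library and female DCKO 6, at 7.96 RPKM, below every one.

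Bcl2l1 encodes Bcl-xL, which binds Bax and several BH3-only proteins. It had 0.0376, 2.39 and 26.4 RPKM in E10.5 DCKO, against 1.69, 5.89, 7.51 and 9.50 RPKM in control. Its E11.5 values had a lowest, median and highest of 0, 3.63 and 16.1 RPKM in DCKO, against 2.19, 7.69 and 22.1 RPKM in control. The groups overlapped at both stages, but at E11.5 3 of 10 DCKO libraries lay below every control library and none above every one. All 8 control libraries reached 1 RPKM at E11.5, and 7 of 10 DCKO libraries did. The log2 fold change was -0.11 (SE 0.83) at E10.5 and -0.88 (SE 0.61, limma unadjusted p = 0.164, adjusted p = 0.946) at E11.5.

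Bcl2, the founding member of the family, was the lowest antiapoptotic gene. It had 2.96, 0.535 and 0.446 RPKM in E10.5 DCKO, against 0.0216, 0.0099, 0.0162 and 1.24 RPKM in control. Male control 2, the control library with 1.24 RPKM, had the highest somatic marker mean of its stage, 2.48, and the other 3 control libraries lay below every DCKO library. At E11.5 it had a lowest, median and highest value of 0.0256, 0.347 and 18.6 RPKM in DCKO, against 0.0919, 1.24 and 23.2 RPKM in control. The groups overlapped, with a log2 fold change of -0.30 (SE 0.71) that became 0.09 with a covariate for the somatic marker mean and -0.57 (SE 0.54) without the 3 libraries highest in somatic markers. Without the 3 libraries with the fewest genes it was -1.42 (SE 0.67, limma unadjusted p = 0.0527, adjusted p = 0.781). In the annotation 6.09% of the Bcl2 exon bases overlap D630008O14Rik on the opposite strand. At E10.5, with no filter on low genes, the log2 fold change was 0.74 (SE 0.51; adjusted p by limma = 0.931).

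Summed by role, the effectors had 86.2, 95.7 and 88.4 RPKM in E10.5 DCKO, against 66.8, 52.8, 18.9 and 78.2 RPKM in control. The antiapoptotic members summed to 26.7, 36.5 and 53.3 RPKM in DCKO, against 55.95, 44.9, 23.2 and 48.95 RPKM in control. The ratio of antiapoptotic to effector RPKM was 0.31, 0.38 and 0.60 in DCKO, against 0.84, 0.85, 1.23 and 0.63 in control. All 3 DCKO ratios lay below all 4 control ratios, though male DCKO 1 and male control 2 were close, and no test was run on these sums. Bax, whose groups were already apart, makes up most of the denominator in every E10.5 library, and 2.87% of single genes had all DCKO libraries below all control libraries. Bax alone made up 39.8% to 57.3% of the summed RPKM of the 10 members in DCKO and 22.6% to 36.5% in control.

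At E11.5 the same ratio did not separate the genotypes. It had a lowest, median and highest value of 0.13, 0.52 and 2.30 in DCKO, against 0.38, 0.70 and 2.32 in control. The 3 libraries with the highest ratios, female DCKO 4 (2.30), male DCKO 1 (1.79) and male control 3 (2.32), were the 3 highest in somatic markers. The 4 lowest ratios, between 0.13 and 0.35, were all in DCKO libraries. These were female DCKO 6, male DCKO 4, male DCKO 2 and female DCKO 1.

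**Figure D3:**
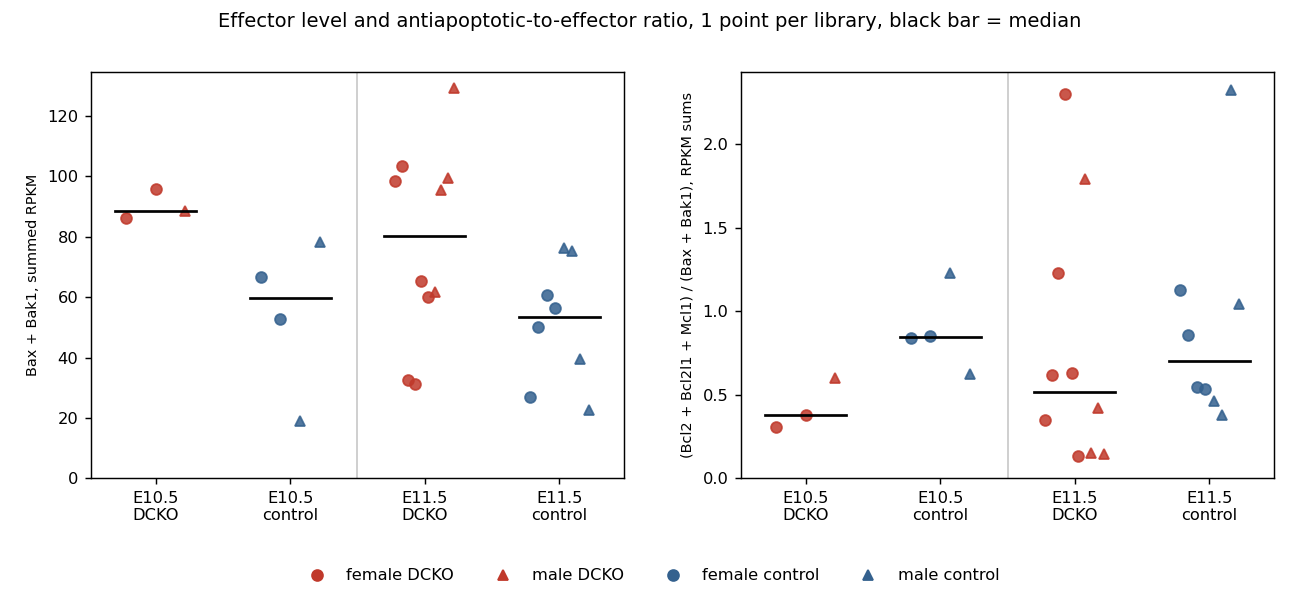
Left, summed RPKM of the effectors Bax and Bak1; right, ratio of the summed RPKM of Bcl2, Bcl2l1 and Mcl1 to that sum, 1 point per library with the group median as a black bar and DCKO left of control at each stage. At E10.5 the DCKO ratios lie between 0.31 and 0.60 and the control ratios between 0.63 and 1.23, and at E11.5 the groups overlap.

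Several members moved with the somatic marker content of the E11.5 libraries. Over 18 libraries, Spearman's rho with the somatic marker mean was 0.72 for Bak1, 0.57 for Bcl2, 0.48 for Bcl2l11, 0.44 for Mcl1 and -0.41 for Bax. These are descriptions, and the points share the library's depth and scaling. Bcl2 had 9.85 RPKM in female DCKO 4, 18.6 RPKM in male DCKO 1 and 23.2 RPKM in male control 3. No other E11.5 library exceeded 6.11 RPKM. Of the 40 markers, 15 had a median of 1 RPKM or more at E11.5, some of which, such as Pecam1 and Cdh1, are also on in PGCs. Mesenchymal markers summed to 288 RPKM in female DCKO 4, 340 RPKM in male DCKO 1 and 548 RPKM in male control 3, and to at most 105 RPKM in the other libraries. Both genotypes held such libraries, but somatic markers leaned lower in E11.5 DCKO. The median log2 fold change was -0.44 over 5 tested gonadal somatic markers and -1.24 over 3 tested blood cell markers. Of those 3, 2 had a limma unadjusted p under 0.05, and none was called. The other somatic lists had medians from -0.26 to -0.06, beside -0.06 for all genes. The fold changes without the 3 libraries highest in somatic markers or with the marker mean as a covariate are given above for Bax, Bcl2l11, Bak1 and Bcl2. For the other members tested at E11.5, the part of somatic RNA in the result was not tested beyond the same settings, in which only Bbc3 changed direction.

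**Figure D4:**
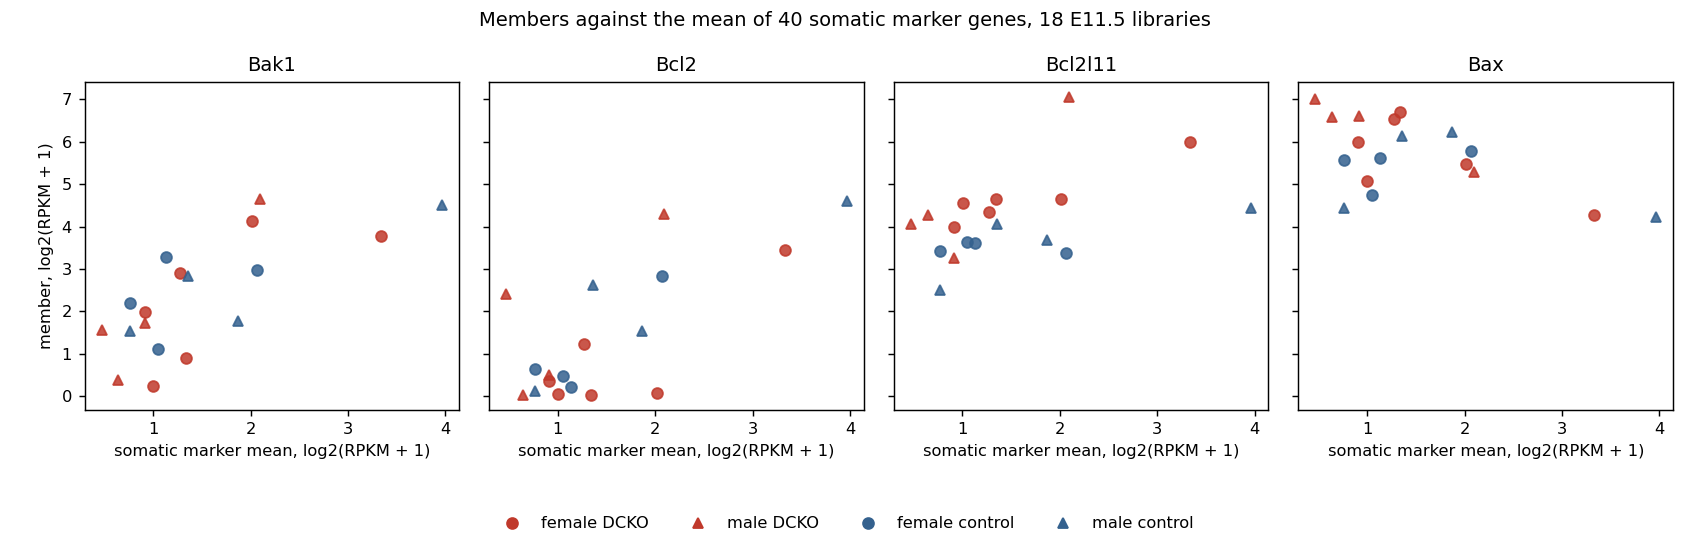
Level of Bak1, Bcl2, Bcl2l11 and Bax as log2(RPKM + 1) against the mean of the same quantity over 40 somatic marker genes, in 18 E11.5 libraries. Bak1 and Bcl2 are high where that mean is highest, in female DCKO 4 (3.33), male DCKO 1 (2.09) and male control 3 (3.97), and Bax is low in female DCKO 4 and male control 3.

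Members varied largely apart from each other. Of the 45 pairs of members over the 18 E11.5 libraries, 17 had a Spearman's rho above 0, and the median was -0.10. The highest rho was 0.67, between Bak1 and Bcl2, and the lowest was -0.66, between Bad and Bbc3. Bax was most like Cct2 (rho 0.87, Pearson's r 0.78), Eef1e1 (rho 0.86, r 0.85) and Hax1 (rho 0.86, r 0.82) among 12666 other genes. Cct2 encodes a subunit of the cytosolic chaperonin. Mcl1 was most like Ttl (rho 0.91, r 0.88), Clic1 (rho 0.86, r 0.80) and Vwa1 (rho 0.86, r 0.52). Bad was most like Recql (rho 0.89, r 0.82), Snupn (rho 0.84, r 0.84) and Platr22 (rho 0.84, r 0.64). These are the highest of many values over 18 libraries and carry no test. Vwa1 and Platr22 had medians of 0.0085 and 0.031 RPKM, so most of their ranks rest on values near 0.

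Within each sex at E11.5, no member passed the adjusted threshold by limma. Dnmt1 did not pass in either sex, with limma adjusted p-values of 0.567 in females and 0.585 in males, so large changes could be missed. Between DCKO and control, 0.00789% of genes passed in females and 0.0316% in males, and Bad in females was the only member with an unadjusted p under 0.05 in either sex. In control PGCs, females against males, no member passed, where 0.00789% of genes did, and none had an unadjusted p under 0.05. The smallest p was again that of Bid, higher by 0.95 (SE 0.48) on the log2 scale in females (limma unadjusted p = 0.0656, adjusted p = 1.00).

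Other genes of the pathway were examined in 4 lists, and limma called none of their members at either stage. Of 15 other Bcl2 relatives, 7 were tested at each stage. Bok, an effector-like relative, had the smallest p at E10.5. It had a lowest, median and highest value of 0.045, 5.02 and 11.8 RPKM in DCKO, against 0, 0 and 3.46 RPKM in control (log2 fold change 1.73, SE 0.99, limma adjusted p = 0.991). At E11.5 the smallest p was that of Bmf, a BH3-only gene, at -0.61 (SE 0.55, unadjusted p = 0.282, limma adjusted p = 0.946). Relatives had a median log2 fold change of -0.18 at E11.5 and 0.02 at E10.5.

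The 19 genes of the apoptosome and caspases list were all tested. Apaf1, the scaffold that assembles with cytochrome c, had a mean of 10.2 ± 4.53 RPKM in E11.5 DCKO (SD, n = 10), against 6.13 ± 2.65 RPKM in control (SD, n = 8). Its log2 fold change was 0.59 (SE 0.32, limma unadjusted p = 0.0806, adjusted p = 0.910). The list's median was 0.03 at E11.5 and -0.31 at E10.5.

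Of 13 binding partners and regulators of stability, all tested at both stages, 2 had an unadjusted p under 0.05 at E11.5, both higher in DCKO. Dynll1, a dynein light chain that binds Bim, had a mean of 244 ± 38.7 RPKM in DCKO (SD, n = 10), against 181 ± 76.2 RPKM in control (SD, n = 8). Its log2 fold change was 0.53 (SE 0.20; adjusted p by limma = 0.902). Vdac2, the outer membrane channel that binds Bak1, had a mean of 105 ± 18.8 RPKM in DCKO (SD, n = 10), against 75.2 ± 20.1 RPKM in control (SD, n = 8). Its log2 fold change was 0.50 (SE 0.20; adjusted p by limma = 0.902). At E10.5 the smallest p was that of Ywhaz, a 14-3-3 protein gene, at -0.62 (SE 0.36; adjusted p by limma = 0.991). The list's median was 0.03 at E11.5 and -0.19 at E10.5.

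Of 13 genes for upstream transcription and damage signalling, 13 were tested at E11.5 and 12 at E10.5. Foxo3, a transcription factor known to switch on Bcl2l11 and Bbc3, had a lowest, median and highest value of 3.09, 23.8 and 85.5 RPKM in E11.5 DCKO, against 21.6, 46.5 and 146 RPKM in control. Its log2 fold change was -1.37 (SE 0.42, limma unadjusted p = 0.00419, adjusted p = 0.849). Chek1, a DNA damage checkpoint kinase gene, had a mean of 22.02 ± 4.98 RPKM in DCKO (SD, n = 10), against 15.4 ± 4.96 RPKM in control (SD, n = 8), a difference of 0.47 on the log2 scale (SE 0.22; adjusted p by limma = 0.902). These were the 2 genes of the list with an unadjusted p under 0.05 at E11.5, 1 lower and 1 higher.

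Trp53, which encodes p53, had a mean of 303 ± 83.6 RPKM in E11.5 DCKO (SD, n = 10), against 350 ± 102 RPKM in control (SD, n = 8). It had a mean of 395 ± 153 RPKM in E10.5 DCKO (SD, n = 3), against 413 ± 49.2 RPKM in control (SD, n = 4). Its log2 fold change was -0.24 (SE 0.22) at E11.5 and -0.07 (SE 0.34) at E10.5, smaller than or close to its SE. At E10.5 the smallest p of the list was that of the p53 target Cdkn1a, a cell cycle inhibitor. Cdkn1a had a lowest, median and highest value of 17.9, 26.3 and 27.8 RPKM in DCKO, against 0.066, 6.15 and 22.2 RPKM in control (log2 fold change 1.97, SE 0.95, limma unadjusted p = 0.0699, adjusted p = 0.991). The list's median was 0.33 at E11.5 and 0.18 at E10.5, beside -0.06 and -0.05 for all genes tested.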

How the data were processed

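Polyadenylated RNA was measured in 25 libraries of sorted mouse PGCs. The authors deposited 1 table of RPKM per stage; the submitters' processing notes name mm9, TopHat2 2.1.0, Cufflinks 2.2.1 and Cuffdiff, without saying which made these tables. The sources used here give neither the gene models nor the strand handling. Depth is unknown, so no counting interval is given.

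Members and gene lists were chosen with earlier results of these data known. Genes averaging 1 RPKM or more in a table (11584 at E10.5, 12667 at E11.5) were tested with limma 3.58.1 (R 4.3.3) with a trend on log2(RPKM + 1), with Benjamini-Hochberg adjustment over all of them and 0.05 as the threshold. E11.5 used 4 group means (sex by genotype), the genotype effect being the mean of both sexes' differences; E10.5 used additive genotype and sex. The code was tested on simulated data. Stages were not tested against each other. Single members were also tested by exact permutation of libraries.

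Named genes were all members, Dnmt1, Trp53 and, in each pathway list, those past the threshold or else the 1 with the smallest p per stage; 1 result under this rule is not reported here. Dynll1, Vdac2, Foxo3 and Chek1 were the list genes with an unadjusted p under 0.05, and Vdac2 and Chek1 were named after their values were seen. The most similar genes were the 3 with the highest Spearman's rho. Alternatives were other pseudocounts, filters, scalings, models and covariates, a replicate block and leaving out libraries. Leaving out the libraries highest in somatic markers or with the fewest genes, the covariate for the number of genes and the E10.5 somatic covariate were chosen after seeing the data. Promoters are from RefSeq (GRCm38.p6) and exon overlaps from GENCODE M21; no coordinates were carried to mm9.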

Additional observations from a re-analysis of the deposited data

Results flagged for a closer look

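Of 40 sets of 1 member in 1 group of 4 to 6 E11.5 libraries of the same sex and genotype, 6 held a library whose distance to the nearest of the others was large against the range of its group, on the log2 scale. Chance gives about 1 such group in 20 where values are normally distributed, which those of genes near 0 RPKM, such as Pmaip1 and Bcl2, need not be. Bcl2l11 was 62.4 RPKM in female DCKO 4, with 14.8 to 24.2 RPKM in the other female DCKO libraries. Bcl2 was 9.85 RPKM in the same library, with 0.0264 to 1.35 RPKM in the others. Female DCKO 4 was the library with the second highest somatic marker mean, and the part of somatic RNA in these values was not tested. Pmaip1 was 1.47 RPKM in female DCKO 3, with 0.0182 to 0.189 RPKM in the others. Mcl1 was 7.96 RPKM in female DCKO 6, below the 29.1 to 52.5 RPKM of the others. Among female control libraries, Bcl2 was 6.11 RPKM in female control 3, with 0.157 to 0.567 RPKM in the others. Bcl2l1 was 2.19 RPKM in female control 4, below the 7.14 to 8.47 RPKM of the others.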

How the results depend on the processing

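No member passed the adjusted threshold in any of the 6 comparisons under any alternative run: 32 for genotype at E11.5 and 20 at E10.5, and 31 or 32 for each comparison by sex. Over all genes, the number called ran from 2 to 5 for genotype at E11.5 and from 0 to 11 at E10.5, where 11 were called without male DCKO replicate 1. It ran from 1 to 4 in females (main count 1), from 1 to 4 in males (main count 4), from 0 to 2 for the difference between the sexes (main count 0) and from 0 to 22 for sex in controls (main count 1), with 22 under library weights. Of 446 alternative fold changes of members by genotype, 431 kept their direction and 15 were reversed.

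At E11.5 Bbc3 was reversed to -0.34 with the number of genes as a covariate, to -0.54 without the libraries highest in somatic markers and to -0.26 with a replicate block by title number. Bcl2 became 0.091 with the somatic covariate and 0.19 with the number of genes as a covariate, and Mcl1 -0.19 without the libraries with the fewest genes. In the other direction, without the libraries with the fewest genes Bcl2 was -1.42 and Bak1 -1.03, and Mcl1 was 0.97 with the number of genes as a covariate. The cause was not tested. Leaving out 1 library at a time, the range was -0.36 to 0.93 for Bbc3 and -0.71 to 0.10 for Bcl2 at E11.5. At E10.5 it was -0.26 to 0.61 for Bid, -2.63 to 0.48 for Bad, -1.20 to 0.59 for Bcl2l1 and 0.26 to 1.91 for Bbc3. The unadjusted limma p of Bax at E10.5, 0.0509, was 0.0394 with median-of-ratios scaling, 0.0183 with library weights, 0.0336 with genotype alone, 0.00961 with the somatic covariate and 0.0315 with a replicate block by replicate number. It was higher with quantile normalization (0.0588) and with a replicate block by title number (0.0869). The block by replicate number gave the same fold change, 1.29, as leaving out male control 2. The block by title number gave the same, 0.72, as leaving out male control 1. Neither block is therefore a separate check. Leaving out 1 library at a time, the unadjusted limma p of Bax at E10.5 ran from 0.0170 to 0.204.

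A replicate block by replicate number gave -2.10 for Bad and 1.18 for Bcl2l11 at E11.5, with 0 members and 2 genes called. Same-numbered libraries did not deviate together: the correlation ran from -0.165 to 0.150 over 8 pairs, with 2 above 0.1. By title number it ran from -0.02 to 0.49 over 13 pairs, with 6 above 0.1, and that block gave -1.97 for Bad and 0.85 for Bcl2l11. The pair at 0.49 was female DCKO 4 and male control 3, which share title number 90 with female control 3. Their somatic marker means were 3.33, 3.97 and 2.07, so title number and somatic content cannot be told apart there. Low members rest on values near 0, where unknown depth limits what can be seen.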
